A study of Mus musculus with 14 samples.

Results

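The comparison described here sets mouse embryonic fibroblasts that received SKO together with MEF2C against fibroblasts that received SKO together with an empty Flag vector. It was chosen by the sample titles, which put 4 arrays in each group, 8 of the 14 arrays of the series. Both groups carried SKO, were fibroblasts of the ICR strain grown in medium for mouse embryonic stem cells, and were lysed at day 6 or day 10 after feeder cells had been removed, with 2 arrays per group and day. SKO is not explained in the labels. In reprogramming work it usually means Sox2, Klf4 and Oct4, the product of Pou5f1. The other arrays carried SKO with HDAC7 (4 arrays) or GFP without SKO (2 arrays, 1 per day), and their levels are given beside the results where they bear on them. The labels number the replicate arrays as experiments 1 and 2 and do not say whether each was its own culture, so the p-values below cover the array-to-array spread alone, and this could be technical. The description field, which is the same for all 14 arrays and speaks of a pre-iPSC sample, was not used to place any array in a group.

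MEF2C belongs to the MEF2 transcription factors, first known from muscle, where it acts with other factors at the genes of the contractile apparatus. MEF2 proteins bind AT-rich DNA and can activate or repress according to their partners, among them the class IIa histone deacetylases, which bind MEF2 and hold its targets down. When fibroblasts are reprogrammed toward pluripotency, they are known to lose contractile, matrix and mesenchymal genes and to gain epithelial genes before the pluripotency network is established. A change of that kind is called a mesenchymal-to-epithelial transition. The comparison asks how expression in cells with SKO differs when MEF2C is added.

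Expression values are deposited log2 levels. Array medians lay between 5.68 and 5.76, and the 7 fibroblast markers examined lay between 7.84 and 12.9 on every SKO+MEF2C array. The replicate arrays of SKO+Flag at day 10 were the widest pair, with an SD of 0.171 for their differences over genes, against 0.117 to 0.142 for the other SKO pairs. These are RNA levels of whole cultures, so fewer cells of a type and less RNA per cell cannot be told apart. Of markers of other cell types, 13 of 17 blood, 12 of 20 endothelial, 13 of 17 keratinocyte, 14 of 17 endoderm and trophoblast and 10 of 20 neural markers lay below the array median on the SKO+MEF2C arrays. The mean level of the neural markers was above the array medians, at 6.21 to 6.27 with MEF2C, 6.12 to 6.28 with the empty vector and 5.85 to 5.98 on the GFP arrays. The part of such cells in the results was not tested.

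The added factor was found on the arrays that carry its label. Mef2c lay at 6.81 and 6.75 on the SKO+Flag arrays of day 6 and at 6.43 and 6.64 on those of day 10. On the SKO+MEF2C arrays the day 6 levels were 9.72 and 9.47 and the day 10 levels 9.93 and 9.80. No array of either group overlapped with the other, and the difference was 3.07 ± 0.07 (SE), or 8.41-fold, in limma's moderated test (Benjamini-Hochberg adjusted p = 3.9e-09). The probes cannot tell added from endogenous Mef2c. The SKO+Flag levels were close to those on the GFP arrays, 6.43 and 6.69. Pou5f1 lay between 11.70 and 11.92 with MEF2C and between 11.77 and 12.10 with the empty vector, against 5.24 and 5.18 on the GFP arrays. Pou5f1, Klf4 and Sox2 did not pass the test between the groups, with differences of -0.14, -0.10 and -0.06. Without the second SKO+Flag array of day 6, Pou5f1 passed it with an adjusted p of 0.044. Sox2 lay between 5.16 and 5.37 on these 8 arrays and at 4.93 and 5.27 on the GFP arrays and Klf4 between 8.80 and 9.05 against 8.93 and 8.66, so neither probe set shows whether its factor was delivered. Of the other class IIa deacetylase and MEF2 family genes only Hdac9 passed (0.31 ± 0.05, limma adjusted p = 0.0039), and it missed the threshold at 0.058 when the 8 arrays were fitted alone with day as an additive covariate. Mef2a (-0.17), Mef2d (0.05), Hdac4 (-0.04) and Hdac5 (-0.01) did not pass. Without the first SKO+Flag array of day 10, Mef2a passed at -0.26.

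Of 19935 genes, 2054 (10.3%) differed with MEF2C, 1094 higher (5.49%) and 960 lower (4.82%), as the mean of both days, at a limma adjusted p under 0.05, which is called passing the test below. Most of these differences were small, with a median size of 0.29 on the log2 scale, and 16 genes rose and 11 fell by at least 1. The additive fit to the 8 arrays alone called 876 higher and 800 lower. Which direction held more genes depended on the scaling, since median centring gave 838 higher and 1040 lower and quantile normalization 1049 and 1097. It also depended on a single array: without the first SKO+Flag array of day 10, 958 were higher and 1190 lower. On 5.29% of genes all 4 SKO+MEF2C arrays lay above all 4 SKO+Flag arrays, and on 3.96% all lay below.

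Promoter motifs of 2 kinds bear on a comparison of this kind. MEF2 proteins bind the MEF2 consensus, an AT-rich stretch, and serum response factor, which drives contractile genes with MRTF or myocardin partners, binds the CArG box. Both motifs read the same on either strand and were searched in the 250 bases before each gene's start in RefSeq promoters of build GRCm38.p6. The sequences run 5′ to 3′ on the gene's strand with the match in capitals. Shown are the 10 genes that rose most among those that hold a MEF2 match, so that the letters around it can be compared, and Myl9, Vcl and Cnn2, the contractile genes that rose and hold a CArG box. On the minus strand lie Anxa10 at chr8:62123390-62123443, Fhl2 at chr1:43196762-43196827, Pcdh20 at chr14:88471590-88471646, Net1 at chr13:3893785-3893831, Atf3 at chr1:191183334-191183390 and Maco1 at chr4:134853515-134853594. On the plus strand lie Filip1l at chr16:57353188-57353267, Glcci1 at chr6:8519808-8519856, Inhba at chr13:16011720-16011799, Rhobtb1 at chr10:69212992-69213071, Myl9 at chr2:156775268-156775347, Vcl at chr14:20929148-20929215 and Cnn2 at chr10:79988509-79988588.
Anxa10, MEF2 consensus: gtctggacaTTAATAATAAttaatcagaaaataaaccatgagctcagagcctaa
Fhl2, MEF2 consensus: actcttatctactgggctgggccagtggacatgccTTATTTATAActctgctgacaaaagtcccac
Pcdh20, MEF2 consensus: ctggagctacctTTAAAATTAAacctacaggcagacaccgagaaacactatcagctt
Net1, MEF2 consensus: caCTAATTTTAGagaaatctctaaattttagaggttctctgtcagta
Filip1l, MEF2 consensus: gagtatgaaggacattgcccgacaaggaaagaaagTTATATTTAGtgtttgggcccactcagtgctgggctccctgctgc
Glcci1, MEF2 consensus: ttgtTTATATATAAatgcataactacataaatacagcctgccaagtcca
Atf3, MEF2 consensus: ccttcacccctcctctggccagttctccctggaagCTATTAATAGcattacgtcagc
Inhba, MEF2 consensus: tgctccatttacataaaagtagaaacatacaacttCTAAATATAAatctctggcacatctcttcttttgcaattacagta
Maco1, MEF2 consensus: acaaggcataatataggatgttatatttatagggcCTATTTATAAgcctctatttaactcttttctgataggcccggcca
Rhobtb1, MEF2 consensus: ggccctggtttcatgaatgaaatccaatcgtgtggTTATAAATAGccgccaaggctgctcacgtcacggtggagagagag
Myl9, CArG box: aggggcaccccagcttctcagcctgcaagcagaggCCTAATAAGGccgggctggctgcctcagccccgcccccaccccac
Vcl, CArG box: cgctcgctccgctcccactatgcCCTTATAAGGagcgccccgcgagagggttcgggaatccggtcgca
Cnn2, CArG box: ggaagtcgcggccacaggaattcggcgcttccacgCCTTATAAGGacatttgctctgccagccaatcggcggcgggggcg

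The match begins 241 bases before the start in Anxa10, 96 in Inhba, 22 in Atf3, 161 in Myl9, 227 in Vcl and 56 in Cnn2. A match describes the letters only and is not a site that was shown to be bound. The MEF2 consensus stood in front of 22 of 871 genes higher with MEF2C (2.53%), 19 of 771 lower genes (2.46%) and 444 of all 15612 genes with a promoter (2.84%). The CArG box was found in 20 of the higher genes (2.30%), 14 of the lower genes (1.82%) and 227 of all genes (1.45%). These shares were not tested against each other. Of 21 contractile genes with a promoter, 4 held a CArG box and 2 a MEF2 match. Both motifs stood in the same promoter window in 10 windows of the genes tested, and 1 of them belonged to a gene that passed, Fhl2, a LIM-domain partner of muscle and cytoskeletal proteins. Filip1l held them in separate promoters.

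The genes that rose most with MEF2C belonged to several families. Anxa10, an annexin, a family of calcium-dependent membrane-binding proteins, lay at 8.34 and 8.29 on the SKO+Flag arrays of day 6 and at 10.04 and 9.89 on the SKO+MEF2C arrays. At day 10 it lay at 6.39 and 6.19 with the empty vector and at 9.11 and 9.24 with MEF2C, so that no array overlapped. The difference was 2.27 ± 0.06, or 4.83-fold, as the mean of both days (limma adjusted p = 5e-09). Anxa10 was at 4.62 and 4.89 on the GFP arrays. Its level was lower at day 10 than at day 6 in both groups, and the gap between the days was wider with the empty vector. Fabp3, the fatty acid binding protein of heart and muscle, went from 6.18 and 6.31 to 7.66 and 7.50 at day 6 and from 5.63 and 5.34 to 7.12 and 7.27 at day 10. Its difference was 1.52 ± 0.07, or 2.87-fold (limma adjusted p = 9e-07), and again the groups did not overlap. Akr1c14, an aldo-keto reductase that acts on steroids, rose by 1.38 ± 0.10, but probes of related Akr1c genes may cross-hybridise, which was not checked. Of 15 measured annexins and their S100 partners 7 rose (46.7%) and 0 fell, against 5.49% and 4.82% of all genes. The median was 0.10, and 4 rose without the first SKO+MEF2C array of day 6 or the second of day 10. Anxa8 rose by 0.52 ± 0.06, whereas the abundant Anxa1 (0.04) and Anxa2 (0.08) did not pass.

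**Figure D1:**
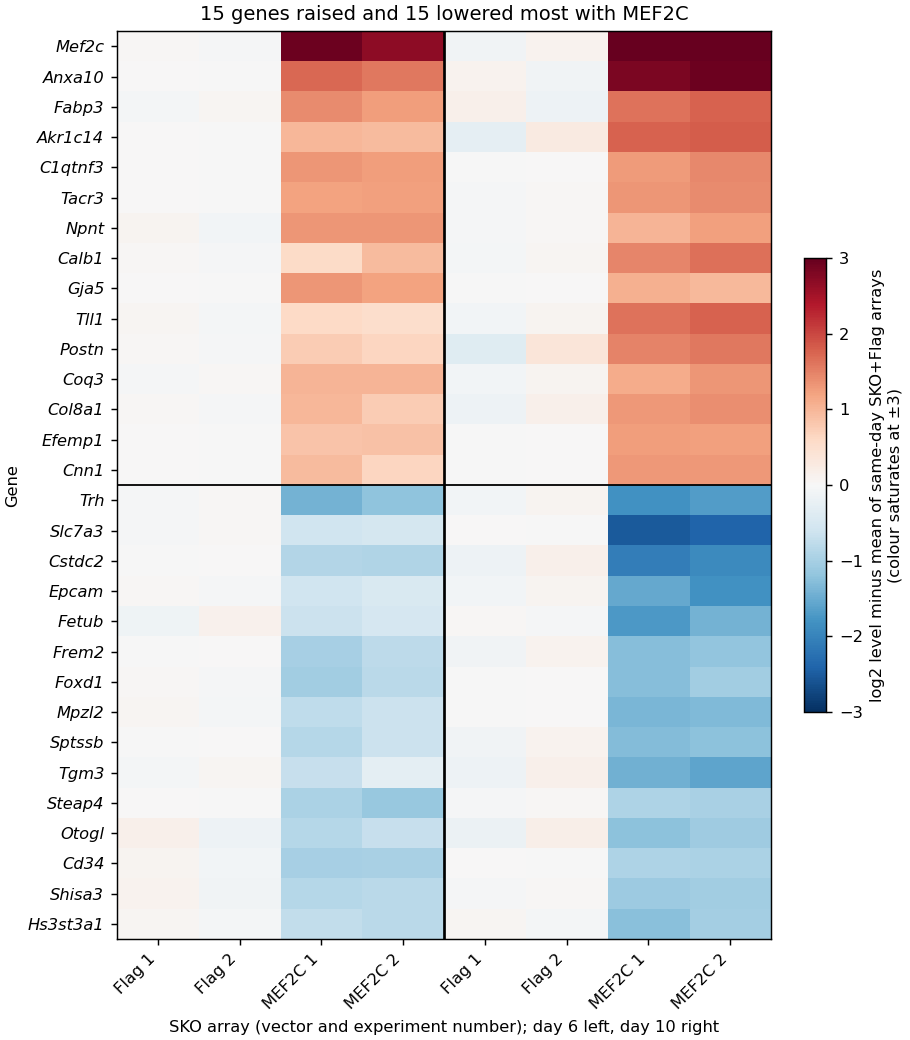
Log2 level minus the mean of the same-day SKO+Flag arrays (colour, saturating at ±3) for the 15 genes raised and the 15 lowered most with MEF2C (rows) on the 8 SKO+Flag and SKO+MEF2C arrays (columns). Every SKO+MEF2C array lies on the same side in all 30 rows, from 3.07 for Mef2c to -1.53 for Trh as mean differences; the genes were chosen for 1 sign in all same-day pairs.

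Other genes of the group that rose most encode receptors, channels and secreted proteins. Tacr3, the receptor of neurokinin B, lay at 5.07, 5.07, 4.73 and 4.79 without MEF2C and at 6.28, 6.29, 6.09 and 6.19 with it, a difference of 1.30 ± 0.05. Its levels on the GFP arrays were 4.70 and 4.80, below the medians of those arrays. Gja5, which encodes the gap junction protein connexin 40, rose by 1.15 ± 0.05, and Calb1, the calcium buffer calbindin, by 1.16 ± 0.08. C1qtnf3, a secreted relative of adiponectin, rose by 1.32 ± 0.05 and Adipor2, an adiponectin receptor gene, fell by 0.31. They were the called members of 13 measured genes for C1q and its relatives and for adiponectin receptors. In each direction that was 7.69%, against 5.49% higher and 4.82% lower of all genes. Efemp1 (1.05), a fibulin of elastic fibres, Tll1 (1.13), a protease that processes procollagen, and Coq3 (1.12), an enzyme of coenzyme Q synthesis, also rose. The adjusted p in limma's test was 9.7e-06 or less for each of the genes that rose. Npnt, the matrix protein nephronectin, rose by 1.23 ± 0.07, and Itga8, whose product forms the nephronectin receptor with integrin beta 1, rose by 0.77 ± 0.06. Itga8 went from 6.60 and 6.55 to 7.04 and 7.16 at day 6 and from 5.89 and 6.03 to 6.91 and 7.06 at day 10. Itgb1, the shared partner, rose by 0.27 ± 0.05, and the collagen receptor gene Itga1 by 0.76 ± 0.07. Of the 25 integrin, nephronectin and Fraser complex genes 6 rose and 3 fell. The members that fell were Frem2 (-1.06), a basement membrane protein of the Fraser complex, Itga4 (-0.84) and Itgb4 (-0.82), a hemidesmosome integrin of epithelia.

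The genes that fell most encode a hormone precursor, transporters, epithelial adhesion molecules and enzymes. Trh, the precursor of thyrotropin-releasing hormone, lay at 9.26 and 9.32 with the empty vector and 7.88 and 8.07 with MEF2C at day 6. At day 10 the levels were 10.97 and 11.12 against 9.23 and 9.36. Within each day the groups did not overlap, and Trh fell by 1.53 on the log2 scale, or 2.89-fold (limma adjusted p = 3e-07), and its GFP levels were 5.02 and 5.43. Slc7a3, a cationic amino acid transporter, Cstdc2, a cystatin domain gene, and Epcam, an epithelial adhesion molecule, fell by 1.51, 1.44 and 1.11. Foxd1 (-1.04), a forkhead transcription factor, Fetub (-1.07), the fetuin B gene, Mpzl2 (-1.03), an epithelial adhesion molecule, Tgm3 (-1.01), an epidermal transglutaminase, and Cd34 (-0.96), a sialomucin of progenitor and endothelial cells, were also among them. Steap4 (-1.0), a metalloreductase, Sptssb (-1.01), a subunit of serine palmitoyltransferase, and Hs3st3a1 (-0.95), a heparan sulfate sulfotransferase, completed the enzymes of the group.

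Genes of the smooth muscle contractile apparatus rose. Of 25 measured members 12 rose and 0 fell, against 5.49% and 4.82% of all genes, and the median difference was 0.18 against 0.01 for all genes. Cnn1, calponin 1, an actin-binding regulator of smooth muscle, lay at 7.26 and 7.26 with the empty vector and at 8.20 and 7.90 with MEF2C at day 6. At day 10 it lay at 5.75 and 5.78 against 7.08 and 7.07. The difference was 1.05 ± 0.07, or 2.07-fold (limma adjusted p = 4.2e-06). Within each day the groups were separate, but the SKO+MEF2C arrays of day 10 lay below the SKO+Flag arrays of day 6, since Cnn1 fell between the days in both groups. On the GFP arrays Cnn1 was at 9.09 and 8.99, above every SKO+MEF2C array. Tagln, transgelin, went from 9.38 and 9.48 to 10.14 and 10.13 at day 6 and from 8.12 and 8.05 to 9.27 and 9.37 at day 10, a difference of 0.97 ± 0.05 (limma adjusted p = 9.4e-07). Myl9, a myosin light chain of smooth muscle, rose by 0.99 ± 0.06, or 1.99-fold, and Acta2, smooth muscle alpha actin, by 0.65 ± 0.04. Tpm1 and Tpm2, which encode tropomyosins, the cytoskeletal linker vinculin (Vcl), caldesmon (Cald1) and the myosin heavy chain gene Myh11 rose by 0.46 to 0.49. Of the regulators of this programme, Srf (0.18, limma adjusted p = 0.057), Mrtfa (0.09), Mrtfb (-0.01) and Myocd (0.03) did not pass. Srf passed without the first SKO+MEF2C array of day 10 (0.23). Leaving out any 1 of the 8 arrays left 12 to 14 contractile genes higher.

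**Figure D2:**
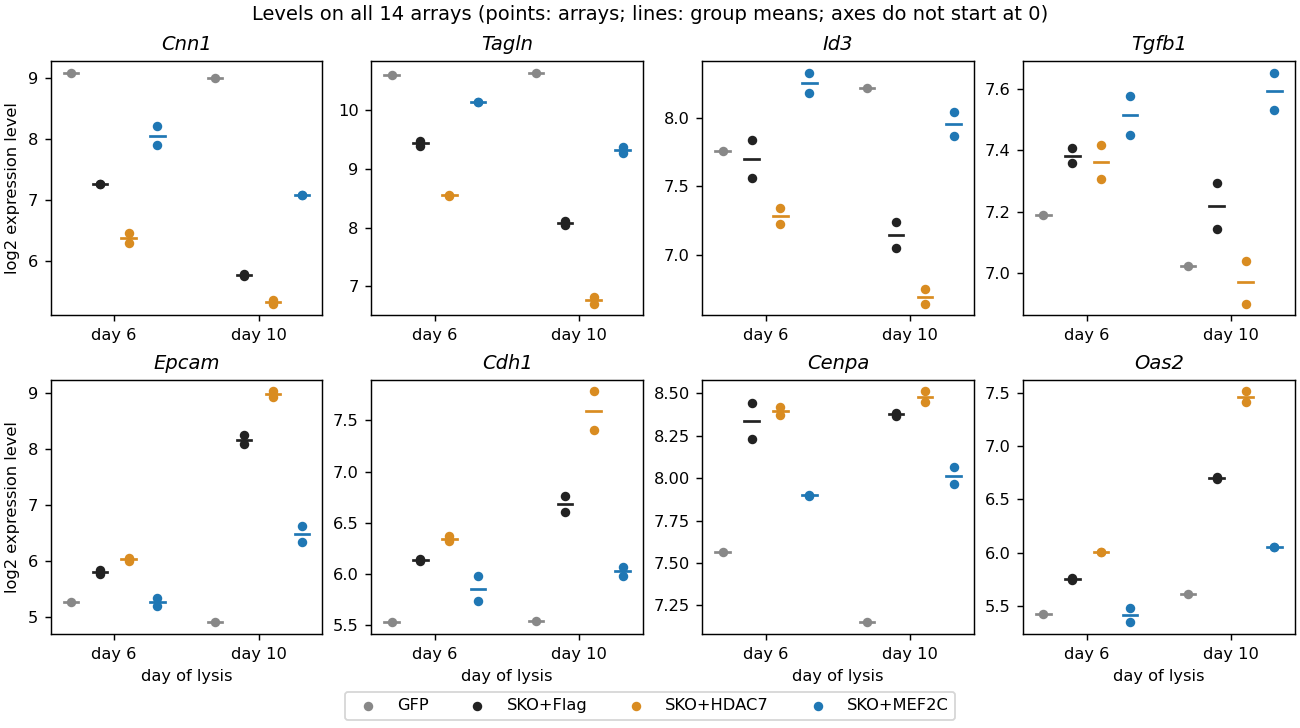
Log2 expression level (vertical axes, not starting at 0) of 8 genes on all 14 arrays by day of lysis, with points for arrays and lines for group means. Cnn1 and Tagln lay between the GFP and SKO+Flag arrays with MEF2C, and Epcam at day 10 lay at 6.62 and 6.34 with MEF2C and at 8.08 and 8.24 with the empty vector.

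Genes of striated muscle, many of them textbook targets of MEF2, were mostly not called. Of those measured, 14.3% rose and 2.86% fell, against 5.49% and 4.82% of all genes. Of 35 measured members 5 rose and 1 fell, with a median of 0.05, and 8 rose when the first SKO+Flag array of day 10 was left out. Myom1, a protein of the sarcomere's M-band, rose by 0.55 ± 0.06, from 5.19 and 5.14 to 5.74 and 5.61 at day 6 and from 4.84 and 5.03 to 5.56 and 5.49 at day 10, without overlap. These levels lie within or below the range of array medians, 5.68 to 5.76, and Myom1 was at 6.26 and 6.37 on the GFP arrays. Des, desmin, rose by 0.49 ± 0.07 and Tnni1, slow skeletal troponin I, by 0.44 ± 0.07. Nppb, the natriuretic peptide gene of stressed heart muscle, fell by 0.45 (limma adjusted p = 0.0056). Among 23 immediate-early genes, 4 rose (17.4%) and 3 fell (13.0%), against 5.49% and 4.82% of all genes, and 1 fell without the second SKO+Flag array of day 10, either SKO+MEF2C array of day 6 or the second of day 10. Nr4a3 rose by 0.45 ± 0.05 and Atf3 by 0.45 ± 0.08. Nr4a1, a known target of MEF2 in lymphocytes and neurons, was at 0.01 ± 0.04 and did not pass. Dusp6, a phosphatase that acts on ERK, fell by 0.39.

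TGF-beta signalling genes rose at the level of ligands, binding proteins and targets. Of 25 measured members 12 rose (48.0%) and 0 fell, against 5.49% and 4.82% of all genes, with a median of 0.16. After median centring 9 rose, and 8 to 10 did when 1 array was left out. Without the first SKO+Flag array of day 10, 1 member fell. Among the ligands, Tgfb3 lay at 7.53 and 7.42 against 8.05 and 7.88 with MEF2C at day 6 and at 6.94 and 6.97 against 7.65 and 7.67 at day 10. It rose by 0.59 ± 0.06, or 1.51-fold (limma adjusted p = 6.1e-05), without overlap. Tgfb1 (0.25 ± 0.06, limma adjusted p = 0.017) and Inhba (0.44 ± 0.08), the activin subunit gene with the MEF2 match printed above, rose as well, but Tgfb1 did not pass in the additive fit or without the second SKO+Flag array of day 6, the first SKO+MEF2C array of day 6 or the second of day 10. Tgfb2 was at -0.09 ± 0.07 and did not pass. Ltbp2, a latent TGF-beta binding protein, rose by 0.61 ± 0.06, and the secreted Thbs1, thrombospondin 1, which can release active TGF-beta, by 0.40 ± 0.04. Among targets, Ccn2, connective tissue growth factor, rose by 0.48 ± 0.05 and Cdkn2b, an inhibitor of cyclin-dependent kinases 4 and 6, by 0.33 ± 0.04. The inhibitory Smad7 was at 0.00 ± 0.05.

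Of 31 BMP signalling genes 7 were higher (22.6%) and 3 lower (9.68%), against 5.49% and 4.82% of all genes. The median was 0.12. Id3, which blocks basic helix-loop-helix factors and is a direct BMP target, went from 7.56 and 7.84 to 8.33 and 8.18 at day 6 and from 7.24 and 7.05 to 7.87 and 8.04 at day 10. It rose by 0.69 ± 0.08, or 1.61-fold (limma adjusted p = 0.0002), with no overlap. Its relatives Id1 (0.17, limma adjusted p = 0.084) and Id2 (0.03) did not pass, although Id1 did without the second SKO+Flag array of day 10 (0.23). The ligand gene Bmp4 rose by 0.29 ± 0.05. The BMP antagonist Grem1 rose by 0.40 ± 0.07 and the inhibitory Smad6 by 0.33 ± 0.05. Of the lower members, Acvrl1, a type I receptor, fell by 0.27. Leaving out any of 5 arrays left 1 of the 3 lower members: the second SKO+Flag array of day 6 or any SKO+MEF2C array.

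Matrix genes rose in part. Of 30 collagen, elastic fibre and cross-linking genes 10 rose and 3 fell. Lox, lysyl oxidase, which cross-links collagen and elastin, went from 9.47 and 9.44 to 10.11 and 10.14 at day 6 and from 8.55 and 8.52 to 9.52 and 9.54 at day 10. The difference was 0.83 ± 0.04 (limma adjusted p = 1.2e-06), without overlap, and the GFP arrays were higher, at 11.19 and 11.74. Col8a1 (1.11), Col5a2 (0.91), Col12a1 (0.74) and Col11a1 (0.56) rose, whereas the main fibrillar collagen genes Col1a1 (0.06) and Col3a1 (-0.02) did not pass. Col6a3 (-0.45) and the fibrillin gene Fbn2 (-0.34) fell. Of 20 matricellular and proteoglycan genes 8 rose and 1 fell, against 5 and 1 in the additive fit; 0 fell without any 1 of the 4 arrays of day 6, and 2 without the first SKO+Flag or SKO+MEF2C array of day 10. Postn, periostin, was the largest at 1.12 ± 0.13, with a wide pair of SKO+Flag arrays at day 10 (7.45 and 8.16) below the SKO+MEF2C arrays (9.29 and 9.39). Tnc, tenascin C, rose by 0.40 ± 0.05.

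**Figure D3:**
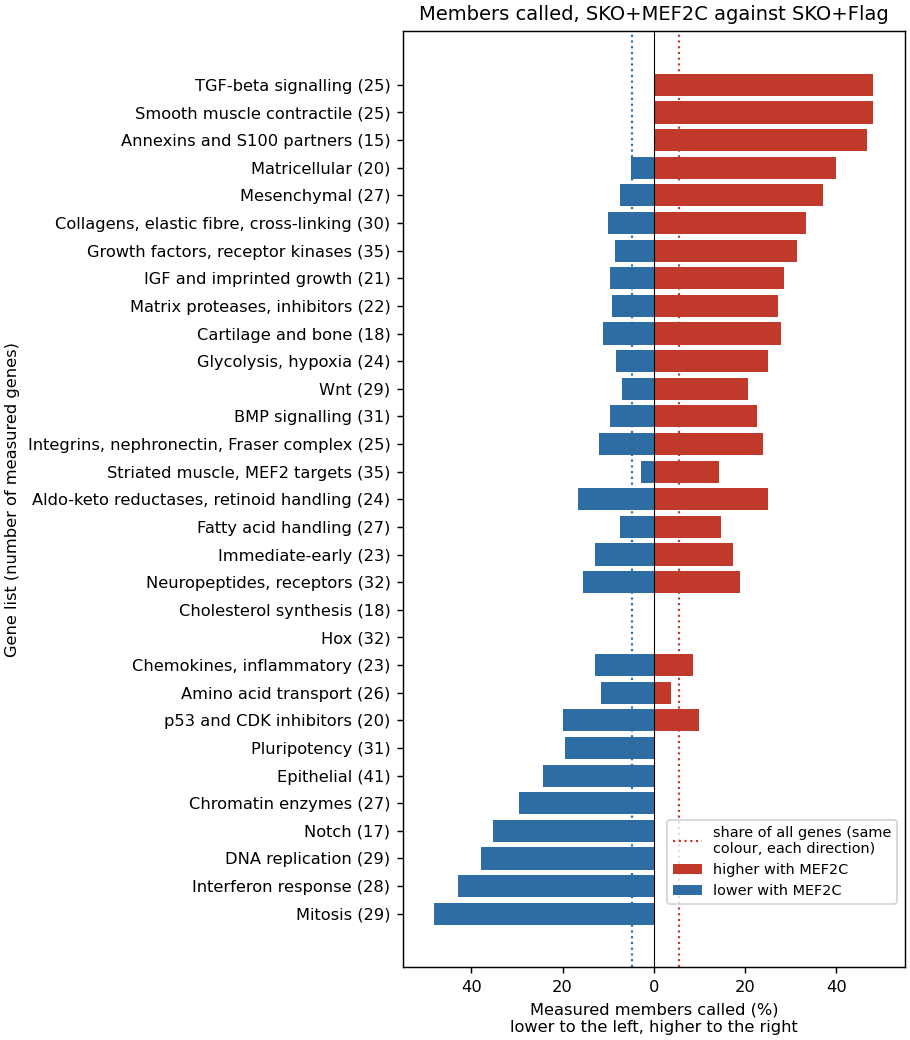
Share of measured members higher (right, red) and lower (left, blue) with MEF2C in 31 gene lists, with the number of measured genes in brackets; dotted lines mark the 5.49% and 4.82% of all genes. TGF-beta signalling and smooth muscle contractile genes reach furthest to the right and mitosis genes furthest to the left.

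Mesenchymal genes rose and epithelial genes fell. Of 27 mesenchymal genes 10 rose (37.0%) and 2 fell (7.41%), against 5.49% and 4.82% of all genes. The additive fit gave 7 and 2, and the median was 0.10. Without the first SKO+Flag array of day 6, the second SKO+MEF2C array of day 6 or either of day 10, 1 fell. Prrx2, a homeobox gene of limb and face mesenchyme, rose by 0.63 ± 0.06, the surface glycoprotein gene Thy1 by 0.53 ± 0.05, Fn1, fibronectin, by 0.43 ± 0.06 and Twist1, a repressor of epithelial genes, by 0.36 ± 0.05. The other repressors of E-cadherin, Snai1 (0.11), Snai2 (0.14), Zeb1 (0.06) and Zeb2 (-0.15), did not pass as the mean of both days, although Zeb2 did without the first SKO+Flag array of day 10 (-0.30). Of 41 epithelial genes 0 rose and 10 fell (24.4%), against 5.49% and 4.82% of all genes, with a median of -0.06. Without the second SKO+Flag array of day 10, 2 rose, and without that of day 6, 1. The count of falls was 5 in the additive fit and 6 without the first SKO+MEF2C array of day 10 or the second of day 6. Epcam lay at 5.84 and 5.76 with the empty vector and 5.20 and 5.34 with MEF2C at day 6, and at 8.08 and 8.24 against 6.62 and 6.34 at day 10. Within each day the groups were separate, and the difference was -1.11 ± 0.07, or 2.16-fold (limma adjusted p = 3.8e-06). Cdh1, E-cadherin, lay at 6.13 and 6.14 against 5.74 and 5.98 at day 6 and at 6.61 and 6.76 against 6.07 and 5.99 at day 10, and fell by 0.47 on the log2 scale, or 1.38-fold (limma adjusted p = 0.0039). Krt8, a keratin of simple epithelia, was at -0.62 ± 0.10, and Pkp1, a desmosomal plaque protein, at -0.47 ± 0.05. Not all epithelial genes followed: Dsp, desmoplakin (0.20), and Krt18 (0.04) did not pass. Perp (0.17), a desmosomal protein outside this list, did not pass either, although it did without the second SKO+Flag array of day 10. At day 10 alone 10 epithelial genes fell and 11 mesenchymal genes rose, against 3.0% lower and 4.0% higher of all genes there. At day 6 alone 3 and 4 did, against 1.77% and 1.33%, and no test compared the days.

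Of 31 measured pluripotency genes 6 fell (19.4%) and 0 rose, against 4.82% and 5.49% of all genes, with a median of -0.01. The count of falls was 4 in the additive fit, and leaving out any 1 array lowered it too. Without the second SKO+MEF2C array of day 10, 1 rose. Tfcp2l1, a transcription factor of naive pluripotent cells, lay at 6.60 and 6.54 against 6.18 and 6.15 with MEF2C at day 6 and at 7.63 and 7.81 against 6.79 and 6.88 at day 10. It fell by 0.64 on the log2 scale (limma adjusted p = 2.8e-05), while the GFP arrays were at 5.56 and 5.50. Alpl, tissue-nonspecific alkaline phosphatase, L1td1, an RNA-binding protein, and Nr0b1 fell by 0.58, 0.49 and 0.49. Nanog (0.02), Sall4 (-0.04) and Lin28a (0.06) did not pass.

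Cell cycle genes fell by small amounts. Of 29 mitosis genes 14 fell (48.3%) and 0 rose, against 4.82% and 5.49% of all genes. The median was -0.23, and all 29 had a difference below 0. Of 29 DNA replication genes 11 fell (37.9%) and 0 rose, with a median of -0.16. Cenpa, the histone variant of centromeres, lay at 8.23 and 8.44 against 7.90 and 7.90 with MEF2C at day 6 and at 8.39 and 8.37 against 8.06 and 7.97 at day 10. It fell by 0.40 on the log2 scale, or 1.32-fold (limma adjusted p = 0.0006), without overlap. Ccna2, cyclin A2, fell by 0.34 and Pole, a DNA polymerase subunit, by 0.35. Mki67, the proliferation marker Ki-67, was at -0.37 ± 0.12 and did not pass (limma adjusted p = 0.087), with SKO+Flag arrays of day 10 at 7.93 and 8.65. Without the first of these it passed at -0.55. The GFP arrays were lower than all 8 arrays for Cenpa (7.57 and 7.15) and Mki67 (7.40 and 6.99). Without the first SKO+MEF2C array of either day, 9 mitosis genes fell. Of 20 p53 and kinase inhibitor genes 2 rose and 4 fell, against 5.49% higher and 4.82% lower of all genes. Without the second SKO+Flag array of day 10, 4 rose, and without any other of the 8 arrays 1 did. Beside the rise of Cdkn2b, the inhibitor genes Cdkn1c and Cdkn1b fell by 0.45 and 0.29, and Cdkn2a was at 0.08 ± 0.09 and did not pass.

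Interferon response genes fell too, with 12 of 28 lower (42.9%) and 0 higher, against 4.82% and 5.49% of all genes, and a median of -0.22. Oas2, an oligoadenylate synthetase, lay at 5.75 and 5.77 against 5.48 and 5.35 with MEF2C at day 6 and at 6.71 and 6.69 against 6.05 and 6.05 at day 10. It fell by 0.49 on the log2 scale, or 1.41-fold (limma adjusted p = 4.9e-05). Within each day the groups were separate. Its relative Oasl2 fell by 0.60, the viral RNA sensor gene Ddx58 by 0.41, the transcription factor gene Irf7 by 0.25 and B2m, the light chain of MHC class I, by 0.31. Ifit1 (-0.23, limma adjusted p = 0.073) and Usp18 (-0.12) did not pass, and Ifit1 passed without the second SKO+Flag array of day 6 or the first of day 10. Without either SKO+Flag array of day 10, 1 interferon gene rose. Of 23 inflammatory genes 2 were higher (8.7%) and 3 lower (13.0%), against 5.49% and 4.82% of all genes. Among them the chemokine gene Ccl2 fell by 0.55 and Ptgs2, cyclooxygenase 2, rose by 0.50.

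Notch and chromatin genes were lower where they moved. Of 17 Notch genes 6 fell (35.3%) and 0 rose, against 4.82% and 5.49% of all genes, with a median of -0.11. Hey2, a Notch target that represses transcription, lay at 7.38 and 7.46 against 6.52 and 6.68 with MEF2C at day 6 and at 6.61 and 6.74 against 6.07 and 6.09 at day 10. It fell by 0.71 on the log2 scale (limma adjusted p = 1.5e-05), and Nrarp, a feedback inhibitor of Notch, fell by 0.46. Of 27 chromatin enzyme genes 8 fell (29.6%) and 0 rose, with a median of -0.11, and 5 fell without the second SKO+Flag array of day 10. Tet2, which oxidises methylcytosine, was at -0.50 ± 0.09, the maintenance methyltransferase gene Dnmt1 at -0.29 ± 0.05 and the de novo methyltransferase gene Dnmt3a at -0.28 ± 0.06. The class IIb deacetylase gene Hdac6 was at -0.32 ± 0.04.

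Growth factor and receptor genes rose more often than they fell. Of 35 members 11 rose (31.4%) and 3 fell (8.57%), against 5.49% and 4.82% of all genes. Without 1 of 3 arrays, the second SKO+MEF2C array of day 6 or either of day 10, 6 or 7 rose. Hbegf, an EGF receptor ligand, went from 8.30 and 8.29 to 9.08 and 9.02 at day 6 and from 7.83 and 7.76 to 8.68 and 8.67 at day 10. It rose by 0.81 ± 0.04, or 1.76-fold (limma adjusted p = 1.5e-06), without overlap. Fgf2 rose by 0.43 ± 0.05 and Pdgfa by 0.34 ± 0.05, while Tek, the angiopoietin receptor, fell by 0.67. In the IGF and imprinted growth list, 6 of 21 rose (28.6%) and 2 fell (9.52%). There 1 fell without the first SKO+Flag array of day 6, either SKO+MEF2C array of day 6 or the second of day 10. The binding proteins Igfbp7 (0.72 ± 0.04), Igfbp2 (0.59 ± 0.07) and Igfbp5 (0.51 ± 0.05) and Pappa (0.50 ± 0.04), the protease that cleaves binding proteins, rose, but Igf2 itself did not pass (-0.07 ± 0.05). In the Wnt list, 6 of 29 rose (20.7%) and 2 fell (6.9%), and 1 fell without any 1 array other than the first SKO+Flag array of day 10. The risers include Frzb (0.90 ± 0.06), a secreted Wnt antagonist, and Lgr5 (0.62 ± 0.07), a receptor of R-spondins.

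Metabolic and other families split. In the retinoid and aldo-keto reductase list, 6 of 24 rose and 4 fell. Aldh1a1, which makes retinoic acid, rose by 0.91 ± 0.06, and Aldh1a7 by the same amount (0.91 ± 0.07), though these near-identical genes may share probe signal. Aldh3a1, an aldehyde dehydrogenase, went from 10.55 and 10.59 to 9.66 and 9.54 at day 6 and from 10.93 and 10.96 to 10.23 and 10.31 at day 10, and fell by 0.82 on the log2 scale (limma adjusted p = 4.2e-06). Rdh10, which makes retinaldehyde, fell by 0.57 and Crabp1, a retinoic acid binding protein, by 0.39. Among neuropeptides and their receptors, 6 of 32 rose (18.8%) and 5 fell (15.6%), against 5.49% and 4.82% of all genes. The rises were in receptors and peptides (Tacr3, Npy1r at 0.78, Cck at 0.55), and the falls as well (Trh, Gpr50 at -0.77). Lpl, lipoprotein lipase, fell by 0.76 and Fabp5 rose by 0.49 in the fatty acid list, where 4 of 27 rose (14.8%) and 2 fell (7.41%), against 5.49% and 4.82% of all genes. There 2 rose without the first SKO+Flag array of day 6 or any SKO+MEF2C array, 5 fell without the first SKO+Flag array of day 10, and 1 fell without any other array but the first SKO+Flag array of day 6. In the glycolysis and hypoxia list 6 of 24 rose and 2 fell, and 3 rose without either SKO+MEF2C array of day 10. Adm, the adrenomedullin gene, Pfkp, a phosphofructokinase, and the aldolase gene Aldoa rose by 0.53, 0.43 and 0.27. Egln3, a hypoxia-induced prolyl hydroxylase, and the glucose transporter gene Slc2a3 were at -0.74 and -0.63. No gene passed among 18 of cholesterol synthesis or 32 Hox genes in limma's test, although leaving out 1 array gave up to 1 and up to 2 in a direction; the lists' medians were 0.01 and 0.00.

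The differences had mostly the same sign at both days. At day 6 alone, 266 genes were higher (1.33%) and 352 lower (1.77%), and at day 10 alone, 798 were higher (4.0%) and 599 lower (3.0%). Without the first SKO+Flag array of day 10 the split at that day turned to 513 higher and 586 lower, and without the second it was 975 and 446. Day 6 counts rest on the spread of few arrays: 618 genes passed in all (3.10%), but 244, 268, 157 and 227 did without SKO+Flag array 1 or 2 or SKO+MEF2C array 1 or 2 of that day. At day 10, 1397 passed (7.01%), and 691 and 716 did without SKO+MEF2C array 1 or 2. Of the genes higher at day 6, 80.5% were also higher at day 10, and of the genes lower at day 6, 64.8% were also lower. The day 10 lists are longer, and 26.8% of the higher and 38.1% of the lower genes there passed at day 6. By sign, 263 of 266 and 338 of 352 genes of day 6 had the same sign at day 10, and 748 of 798 and 549 of 599 of day 10 had it at day 6; the arrays of both days are separate. The day 6 and day 10 differences correlated at r = 0.63 across all genes, which are not independent replicates.

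**Figure D4:**
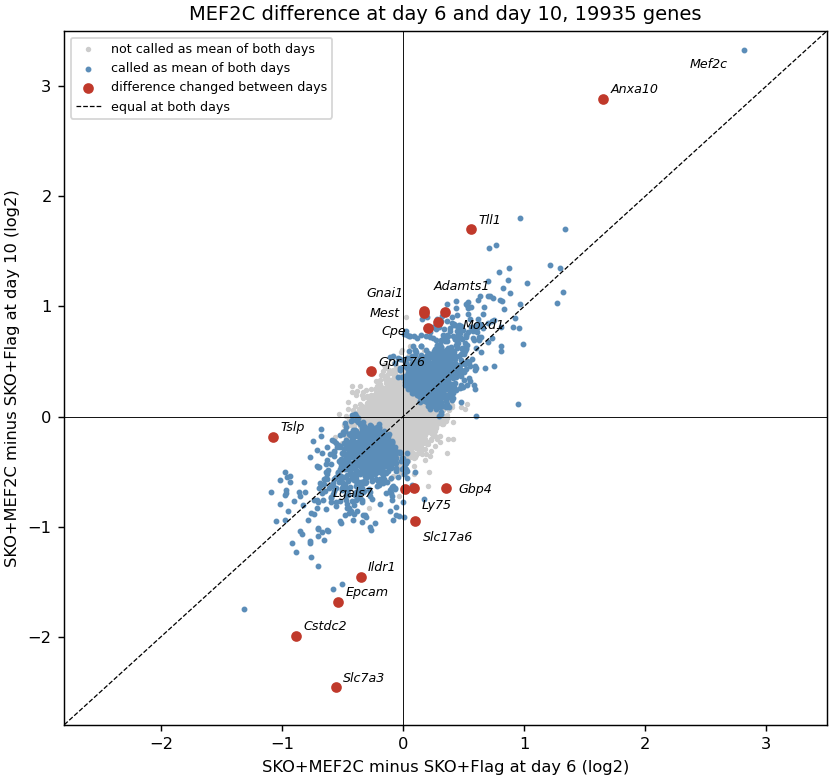
Difference between SKO+MEF2C and SKO+Flag in log2 units at day 6 (horizontal) and day 10 (vertical) for 19935 genes, with genes that passed the test as the mean of both days in blue and the 17 whose difference changed between days in red. Slc7a3, Cstdc2, Epcam and Ildr1 lie well below the line of equal differences, and Anxa10 and Tll1 above it.

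The change of the MEF2C difference between days passed the test for 17 genes (0.0853%), 9 with a larger value at day 10 (0.0451%) and 8 with a smaller one (0.0401%). Slc7a3 lay at 6.61 and 6.66 with the empty vector and 6.04 and 6.11 with MEF2C at day 6, and at 9.61 and 9.60 against 7.09 and 7.21 at day 10. It rose between the days in both groups, by far more with the empty vector, so that the difference went from -0.56 to -2.46, a change of -1.90 (limma adjusted p = 1.9e-05). Epcam (-0.54 to -1.68), Cstdc2 (-0.89 to -1.99) and Ildr1 (-0.35 to -1.46), a gene of tricellular epithelial junctions, did likewise. Slc17a6, a glutamate transporter of neurons, lay at 6.01 and 6.20 on the SKO+Flag arrays of day 10 and between 4.87 and 5.18 on the other 6 of the 8 arrays. The Anxa10 difference grew from 1.65 to 2.89 while its level fell further with the empty vector, and larger at day 10 were also Tll1 (0.56 to 1.70), Gnai1 (0.17 to 0.95), Mest (0.17 to 0.94) and the protease gene Adamts1 (0.35 to 0.95). Tslp, a cytokine of epithelial and stromal cells, was lower with MEF2C at day 6 (-1.07) and did not pass at day 10 (-0.18). This count is the least settled of the comparisons. It was 213 without the second SKO+Flag array of day 10 and 6, 3, 4, 2, 4 and 7 without the first and second SKO+Flag arrays of day 6 and the first and second SKO+MEF2C arrays of day 6 and of day 10. A fit to the compared groups alone called 1 gene, and among the genes named here as the 5 largest in each direction only Slc7a3 kept its call under every alternative. The SKO+Flag pair of day 10, the widest of the SKO pairs, enters each of these changes, and its part in them was not tested.

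The genes lower with MEF2C were mostly higher on the SKO+HDAC7 arrays than on the GFP arrays, which lie outside the comparison. The SKO+HDAC7 and GFP arrays share no array with it, although the SKO+HDAC7 cells carry HDAC7 beside SKO. Of the 960 genes lower with MEF2C, 854 (89.0%) were higher on the SKO+HDAC7 arrays than on the GFP arrays, with a median difference of 0.66, against 45.9% and -0.01 for all genes. Of the genes lower by at least 0.5, it was 140 of 145 (96.6%), with a median of 1.63. Of the 1094 genes higher with MEF2C, 343 (31.4%) were higher on the SKO+HDAC7 arrays, with a median of -0.20. The lower genes also rose from day 6 to day 10 on the SKO+HDAC7 arrays, 716 of 960 (74.6%), against 42.1% of all genes and 24.5% of the genes higher with MEF2C. Levels differed between these sets: the median GFP level was 7.35 for the higher genes, 6.56 for the lower genes and 5.94 for all genes. These are descriptions without a test.

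**Figure D5:**
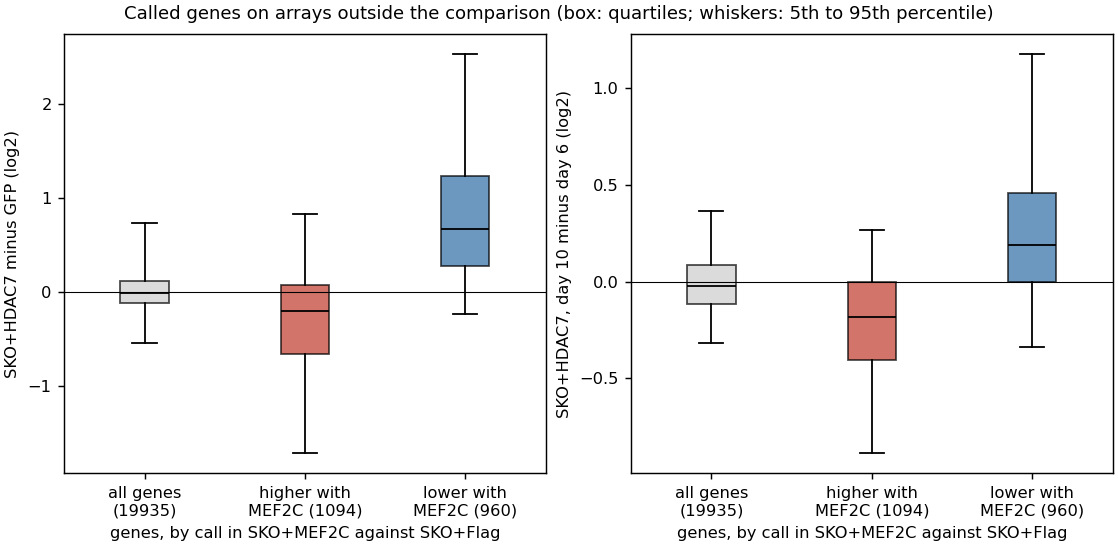
Differences on arrays outside the comparison in log2 units, SKO+HDAC7 minus GFP (left) and day 10 minus day 6 of SKO+HDAC7 (right), for all genes and for those higher or lower with MEF2C; boxes are quartiles and whiskers the 5th to 95th percentile. Medians at left are -0.01, -0.20 and 0.66.

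A direct comparison with the SKO+HDAC7 arrays, which shares the SKO+MEF2C arrays with the comparison above but no SKO+Flag array, called 4395 genes (22.0%), 2344 higher (11.8%) and 2051 lower (10.3%) with MEF2C. After Mef2c and Hdac7, the widest gaps were in Anxa10 (3.04), Akr1c14 (2.99), Col8a1 (2.38) and Npnt (2.28) on the MEF2C side and Cd34 (-2.19), Nefl (-1.99), a neurofilament gene, Lpl (-1.89) and Krt19 (-1.74) on the HDAC7 side. Set side by side with the values against the empty vector, the contractile list had 16 higher and 1 lower of 25 against HDAC7 and 12 and 0 against Flag, TGF-beta signalling 15 and 1 of 25 against 12 and 0, and epithelial genes 2 higher and 21 lower of 41 against 0 and 10. Mitosis and DNA replication genes had 25 lower of 29 each, and interferon genes 20 lower of 28. Some genes did not follow that order. Frem2, which fell by 1.06 against Flag, was higher with MEF2C than with HDAC7 (0.45 ± 0.07, limma adjusted p = 0.00048), since it lay at 5.82, 5.95, 6.82 and 6.94 on the SKO+HDAC7 arrays. Steap4 and Shisa3 fell by 1.00 and 0.95 against Flag and did not pass against HDAC7 (0.04 and -0.14), though Shisa3 did without the second SKO+HDAC7 array of day 6 (-0.20). Col3a1, which did not pass against Flag, was lower with MEF2C than with HDAC7 by 0.90 on the log2 scale (limma adjusted p = 4.6e-07).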

How the data were processed

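Total RNA was hybridised as biotin-labelled cDNA to Affymetrix whole-transcript arrays, 1 array per sample, per the labels' protocols. Each deposited value is the log2 expression of 1 probe set, and the submitters' processing notes name RMA and Partek without versions. The genome build behind them is not given in the sources used here. They were used as they stood, with no filter on low values and no detection calls. Of 28815 probe sets, 21780 had 1 gene symbol, 1605 several and 5430 none in the platform annotation, and 21689 of the first matched a RefSeq table (GRCm38.p6) by Entrez ID. A gene with several probe sets (998 genes) was represented by that of highest mean on the 14 arrays, which left 19935 genes. Promoters on chromosome 18 were left out of the motif search.

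Differences were tested with limma 3.58.1 in R 4.3.3. A group-means model of vector by day was fitted to all 14 arrays (lmFit and eBayes, 6 residual and 4.71 prior degrees of freedom), and SKO+MEF2C was compared with SKO+Flag as the mean of both days, at each day and between days, and with SKO+HDAC7. The GFP groups, with 1 array each, add no residual degree of freedom. P-values were adjusted by Benjamini-Hochberg over all genes, and a gene was called under 0.05. All differences are log2 values with standard errors, and folds were computed from them.

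The comparison and the 41 gene lists (968 of 1029 entries measured) were chosen with earlier results of these data known. Lists are described by counts and medians, with no set test. For the mean of both days their counts stand beside 5.49% higher and 4.82% lower of all genes. Named genes were the transduced factors, the 15 that rose and the 15 that fell most among called genes with 1 sign in 4 of 4 same-day pairs, the 5 largest per direction for the other comparisons, up to 6 called members of each list, and uncalled list members where a list is described. The procedure was tested on simulated data. Replicate arrays differed in nearly all genes, with 3 to 9 genes at identical values per pair, and were counted separately. The number of arrays limits the precision.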

Additional observations from a re-analysis of the deposited data

Results flagged for a closer look

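The MEF2C difference changed between day 6 and day 10 by limma's test for 17 genes. On the log2 scale the change was -1.90 for Slc7a3, -1.15 for Epcam, -1.11 for Cstdc2, -1.11 for Ildr1 and -1.05 for Slc17a6. Slc7a3, Epcam, Cstdc2 and Ildr1 were lower with MEF2C at both days, by more at day 10. For Slc17a6 only the SKO+Flag arrays of day 10 stood apart. The change was 0.60 for Adamts1, 0.77 for Mest, 0.78 for Gnai1, 0.89 for Tslp, 1.13 for Tll1 and 1.24 for Anxa10. The Tslp value marks a fall with MEF2C at day 6 that was smaller at day 10, and the others rises that were larger at day 10.

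Probe sets outside the gene table held calls too, and their shares were not tested against the 9.35% of probe sets with 1 symbol. Of 5430 probe sets with no gene name, 246 passed the same test (4.53%), 135 higher and 111 lower, with differences up to 1.62 and down to -0.88. Of 1605 probe sets with several gene names, 102 passed (6.36%), 51 higher and 51 lower, with differences up to 1.26 and down to -0.53.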

How the results depend on the processing

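Over the list members and other named genes, 0 of 341 calls turned to the other direction under the alternatives run. Apart from the setting that required a difference of at least 1, 103 calls were lost under at least 1 alternative. Of these, 92 were among 297 for the mean of both days. The medians of 14 of 41 lists, at 0.05 or nearer to 0, changed sign, such as pluripotency genes (-0.146 to 0.026). With 1 array left out, the counts of called genes ranged from 1381 to 2148 for the mean of both days, 157 to 772 for day 6, 691 to 1421 for day 10, 2 to 213 for the change between days and 3342 to 3889 against HDAC7. Day 6 gave 402 genes with the compared groups alone. The change between days gave 44 genes with an intensity-dependent robust prior, 1 with the compared groups alone and 45 among genes above the median level. With a difference of at least 1 required, 27, 14, 55, 8 and 169 genes remained for the mean, day 6, day 10, the change and the comparison with HDAC7, by construction. Array weights, quantile normalization, median centring and the mean over probe sets kept all these counts within 1.5 times; the split between directions after scaling stands with the first counts, and at day 6 median centring gave 191 higher and 343 lower. Why a count moved was not tested beyond this.

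The experiment numbers were not shown to pair the arrays. Same-numbered SKO+Flag and SKO+MEF2C arrays deviated together at r = 0.184 at day 6 and 0.150 at day 10, and the pairs with SKO+HDAC7 at -0.086 to 0.152. With the number as a replicate block over both days, 2007 genes passed as the mean of both days, 555 at day 6, 1361 at day 10 and 12 for the change between days. With a block within each day the counts were 2034, 563, 1410 and 11. Against HDAC7 the first block gave 4389 and the second 4526.

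Signal over background was not judged, since no detection calls were used, and cross-hybridisation of related genes was not checked.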

Other observations

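Several lists that the text above does not describe also held called genes. Of 18 cartilage and bone genes 5 rose (27.8%) and 2 fell (11.1%) with MEF2C, against 5.49% and 4.82% of all genes. Col10a1, the collagen of hypertrophic cartilage, lay at 5.87 and 5.86 against 6.76 and 6.77 at day 6 and at 5.62 and 5.38 against 6.33 and 6.28 at day 10, a difference of 0.86 ± 0.08 (limma adjusted p = 5e-05), without overlap. Acan, the cartilage proteoglycan aggrecan, rose by 0.81 ± 0.05 and Dmp1, a bone matrix phosphoprotein, by 0.43 ± 0.07. Col10a1 is a textbook target of MEF2C in growth plate cartilage. Its levels lay from 5.38 to 6.77, with array medians of 5.68 to 5.76, and GFP arrays had 6.06 and 6.0. Without the first SKO+Flag array of day 6, the second of day 10, the second SKO+MEF2C array of day 6 or the first of day 10, 3 of these genes rose. Of 20 neural markers 3 rose and 1 fell, with the synaptic vesicle gene Syt1 at 0.69 ± 0.06 and the neurofilament gene Nefl at -0.91 ± 0.09; 2 fell without the second SKO+Flag array of day 10 or the first SKO+MEF2C array of day 6. Of 17 blood markers 1 rose and 1 fell, 5.88% each, close to the 5.49% and 4.82% of all genes. Laptm5, a lysosomal membrane protein, fell by 0.69. Cd53, a tetraspanin, rose by 0.29. Cd53 lost its call without any 1 of the 8 arrays but the first SKO+Flag array or the second SKO+MEF2C array of day 10. Of 17 keratinocyte markers 0 rose and 2 fell (11.8%), against 5.49% and 4.82% of all genes. Pkp1 and Krt14 fell by 0.47 and 0.34, and 1 marker rose without the second SKO+Flag array of day 10. No endoderm or trophoblast marker of 17 passed in limma's test, and 1 did without the second SKO+Flag array of day 6.

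Of 22 matrix protease and inhibitor genes 6 rose (27.3%) and 2 fell (9.09%), against 5.49% and 4.82% of all genes. Plau, urokinase, was at 0.44 ± 0.07, its receptor gene Plaur at 0.27 ± 0.05 and the inhibitor Timp1 at 0.32 ± 0.05. Timp3 fell by 0.33. A single array changed the count of falls, which was 1 without the second SKO+Flag array of day 6, the first SKO+MEF2C array of day 6 or the second of day 10. Of 26 amino acid transport genes 1 rose (3.85%) and 3 fell (11.5%), against 5.49% and 4.82% of all genes: beside Slc7a3, the cystine transporter gene Slc7a11 fell by 0.43 and the taurine transporter gene Slc6a6 by 0.24, and Slc7a2, another cationic amino acid transporter, rose by 0.32 ± 0.05. Without the second SKO+MEF2C array of day 6 or of day 10, 2 rose.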
